A study of Mus musculus with 8 samples.

Results

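The blood-testis barrier is built from junctions between neighbouring Sertoli cells, and 9 genes that encode its junction proteins were followed in testes of *Morc2b*-/- and wild type mice at postnatal day 12. They were the claudin genes *Cldn3*, *Cldn5* and *Cldn11*, the occludin gene *Ocln*, the cell adhesion genes *F11r* and *Cxadr*, the scaffold gene *Tjp1*, the N-cadherin gene *Cdh2* and the connexin 43 gene *Gja1*. The members were chosen by name, as junction components, and make up 9 of the 24651 gene symbols in the count files. Poly(A) RNA from the whole testis was sequenced in a stranded library from each of 4 wild type and 4 *Morc2b*-/- males of a mixed strain background, with the testes of 1 male per library as far as the methods state. *Morc2b* encodes a germ cell protein needed for meiosis, and its null allele lacks exon 2, which holds the whole coding region. The design text of the series names the controls *Morc2b*+/-, whereas the sample labels and the methods name them wild type, and the labels are followed here. The comparison of genotypes asks whether the junction genes of Sertoli cells differed between testes with and without *Morc2b* at the age when the barrier is being assembled.

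Sertoli cells are the somatic cells of the seminiferous epithelium that enclose and nourish the germ cells. Their tight junctions, made of claudins, occludin and junctional adhesion molecules on a ZO-1 scaffold, lie side by side with N-cadherin-based basal ectoplasmic specializations, gap junctions and desmosomes. Together these junctions separate the spermatogonia and the earliest spermatocytes from the later meiotic cells on the luminal side, and in the mouse they become a seal during the first wave of spermatogenesis. Only postnatal day 12 was sequenced, so no rise or fall of a junction gene with age could be measured. Germ cell transcripts were used instead as a rough measure of the position of each testis in the first wave.

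The 3 claudin genes differed widely in level, and sequence next to the transcription start of the members is described here. Its relation to level was not tested. RefSeq start windows, from 250 bases before to 50 bases after the start, are described for 7 of the 9 genes, and *Cdh2* and *Cxadr* are named only. The letters CCAAT or their reverse complement ATTGG (the CCAAT box) occurred in 37.4% of 32851 mouse windows of the same length. Stretches of 30 bases are shown for the highest claudin, for *Cldn5*, for the lowest claudin and for *F11r*, which held the most matches. They are in NCBIM37, on the plus strand, with the CCAAT box in capitals on whichever strand it was found.
*Cldn11*, chr3:31048764-31048793: gcctggcttgcgATTGGccggctcgtctcg
*Cldn11*, chr3:31048795-31048824: gggctgtcgcggATTGGcgcttgccagccc
*Cldn5*, chr16:18776810-18776839: agggggtccgcgATTGGctgtgggccgaag
*Cldn5*, chr16:18776840-18776869: gtctgctcatggATTGGttgagctaactcg
*F11r*, chr1:173367603-173367632: cctctcttttcaCCAATcggaacgcgggga
*Cldn3*, chr5:135462054-135462083: gtccaacccaccccatcccagagccaaccc
The window of *Cldn11* held 2 CCAAT boxes, that of *Cldn5* held 2 and that of *F11r* held 4. The *Cldn3* window held 0, and the line printed for it is the 30 bases just before the start. The windows of *Gja1* and *Tjp1* also held 0, and of the start windows of *Ocln* 1 held 1 and the other 0. CCAAT boxes were thus found for 4 of the 7 genes. A match is a string of letters and was not tested for binding. The letters TATAAA or TTTATA (the TATA box) were in no window of the 7 genes and in 13.6% of all windows. The letters GGGCGG or CCGCCC (the GC box) were in the window of each of these genes except *Gja1* and in 35.7% of all windows.

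Libraries held 27144796 to 36941755 counts on transcripts, of which the 9 genes took 0.184 to 0.220%. *Morc2b* itself was counted at 11.7, 16.2, 0.857 and 40.0 CPM (counts scaled to library size, with TMM normalisation for composition) in wild type replicates 1 to 4 and at 0.323, 0.270, 3.29 and 0.0688 CPM in *Morc2b*-/- replicates 1 to 4. The libraries labelled replicate 3 therefore overlapped in *Morc2b* level, the one labelled wild type lying below the one labelled *Morc2b*-/-. The sum of the spermatid markers was 303 CPM for *Morc2b*-/- replicate 3, 149 CPM for wild type replicate 1 and 0.943 to 33.4 CPM for the other 6 libraries, and wild type replicate 1 also stood apart in epididymal and smooth muscle markers. Values without these libraries are given where they change a result. All 8 of the Sertoli markers were detected in every library, and their sum was 2737 to 3152 CPM in wild type and 3003 to 3385 CPM in *Morc2b*-/- testes.

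Scaled to transcript length, the junction genes fell in the order *Cldn11*, *Gja1*, *F11r*, *Cdh2*, *Ocln*, *Cxadr*, *Cldn5*, *Cldn3* and *Tjp1*. Every neighbouring pair kept this order in 8 of 8 libraries. *Cldn11* averaged 369 ± 41.6 CPM per kb in wild type and 411 ± 29.5 CPM per kb in *Morc2b*-/- testes (SD, n = 4 each). It exceeded *Gja1* by 2.06-fold over the 8 libraries, with a range of 1.84 to 2.16 between them. *Gja1* in turn exceeded *F11r* by 1.22-fold, from 1.05 to 1.36 in single libraries. The closest neighbours were *Cdh2* and *Ocln*, at 33.4 and 29.8 CPM per kb over all libraries, their values overlapped between libraries (29.6 to 34.8 and 27.9 to 32.4 CPM per kb), and their ratio was as low as 1.01 in 1 library. *Cldn5* and *Cldn3* overlapped as well, through the *Cldn3* value of 1 library described with that gene, and the other neighbours did not overlap. A step of 4.64-fold separated *F11r*, at 155 CPM per kb, from *Cdh2*.

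**Figure D1:**
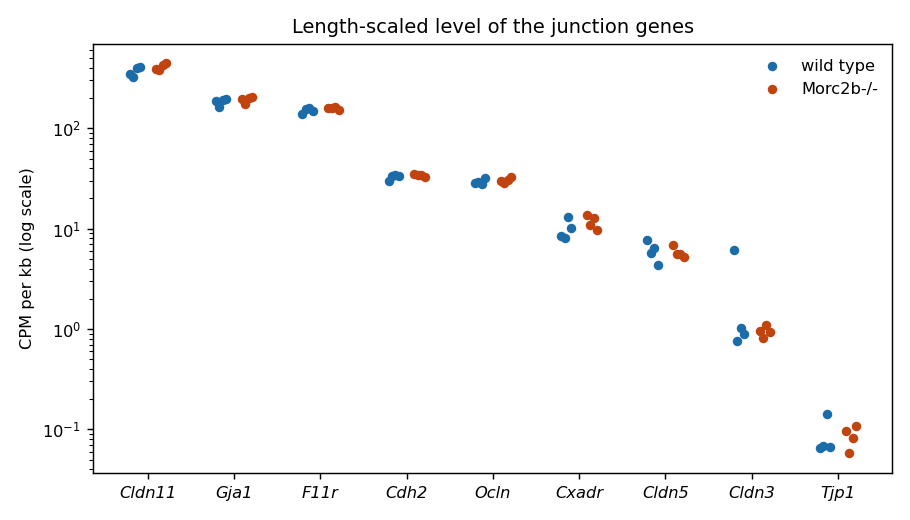
Length-scaled level (CPM per kb, log scale) of each junction gene in 4 wild type (blue) and 4 Morc2b-/- (orange) testes, 1 point per library. The order of the genes is the same in all 8 libraries, with Cldn11 at 323 to 443 CPM per kb and Cldn3 at 0.757 to 1.09 CPM per kb except for 6.19 in wild type replicate 1.

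The deposited counts leave out reads that fell on more than 1 listed transcript, so genes with several RefSeq transcripts are understated. This touched *Tjp1* and *Cxadr* among the members. *Tjp1* had 151 counts in all 8 libraries together over 2 listed transcripts, and its level of 0.0856 CPM per kb is not a measure of its expression. *Cxadr* had 15478 of its 15905 counts on 1 of 3 listed transcripts. The other 7 members were each listed with 1 transcript, so they lost no reads between transcripts of their own. Reads that also fell on a transcript of another gene may be missing, and the effect of this on their order was not tested.

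*Cldn11*, whose product is the main claudin of Sertoli cell tight junctions and is needed for male fertility, lies on the plus strand of chromosome 3 (NCBIM37, 31048868 to 31063246, 3 exons). Its level was 638, 595, 744 and 747 CPM in wild type replicates 1 to 4. In *Morc2b*-/- replicates 1 to 4 it was 727, 699, 789 and 817 CPM. The highest value belonged to a *Morc2b*-/- testis and the lowest to a wild type testis, but the genotypes overlapped. *Morc2b*-/- testes had a mean 11.3% higher, and the log2 fold change was 0.15 ± 0.09 (SE) with a 95% interval from -0.04 to 0.35. This difference did not pass edgeR's quasi-likelihood test (adjusted p = 0.9998), and an exact permutation test of log2 CPM (two-sided, n = 4 each) gave p = 0.200. The interval leaves room for a level up to 27.7% higher or 2.99% lower in *Morc2b*-/- testes.

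*Cldn3*, which encodes a claudin of newly forming Sertoli junctions that is known to respond to androgen, is a single-exon gene on chromosome 5 (135462084 to 135463342, plus strand). It was counted at 7.80 CPM in wild type replicate 1 and at 0.954, 1.29 and 1.13 CPM in wild type replicates 2 to 4. The *Morc2b*-/- testes had 1.20, 1.03, 1.38 and 1.17 CPM. Apart from the 286 counts of wild type replicate 1, no library had more than 48 counts, and the *Morc2b*-/- values lay inside the range of the wild type values. With all libraries the log2 fold change was -1.24 ± 0.66, with an interval from -2.73 to 0.25 and adjusted p = 0.9998 by edgeR. Without wild type replicate 1, a choice made after seeing the data, it was 0.08, so the direction came from 1 library. The mean of the other 3 wild type libraries was 1.12 ± 0.166 CPM (SD), against 1.19 ± 0.143 CPM in the 4 *Morc2b*-/- libraries.

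The library with high *Cldn3* was also the highest in several marker lists. Its 9 epididymis markers summed to 169 CPM, against 2.92 to 12.2 CPM in the other libraries, with *Spink8* at 118 CPM and *Ces5a* at 46.5 CPM. *Gpx5*, with 16 of its 17 counts, and *Adam7*, with 12 of its 25, were also highest there. *Cst11*, the only 1 of these markers with enough counts to be tested, was not raised there, at 3.92 CPM against 2.78 to 4.43 CPM elsewhere. The defining markers *Lcn5*, *Lcn9* and *Rnase10* were at 0 in every library, but *Lcn5* and *Rnase10* are listed with several transcripts, so reads they share between transcripts may be missing from these counts. Its 4 peritubular myoid (smooth muscle) markers summed to 1497 CPM, against 714 to 911 CPM elsewhere. The list of 4 immature Sertoli markers was highest there too, with a sum of 198 CPM against 78.2 to 145 CPM elsewhere. Of this list, the keratin genes *Krt8* and *Krt18*, which simple epithelia also express, had 11.3 and 11.8 CPM, against at most 0.773 and 1.30 CPM in any other library. *Amh*, the anti-Müllerian hormone gene of immature Sertoli cells, had 174 CPM against 77.2 to 143 CPM, and *Ncam1*, with several listed transcripts, had at most 15 counts in any library. *Cldn4*, which encodes a claudin of simple epithelia, reached 4.85 CPM there and 0.597 to 1.43 CPM elsewhere. *Morc2b*-/- replicate 2 had the second highest epididymis sum, 12.2 CPM, and its *Cldn3* level of 1.03 CPM was the second lowest of the 8 libraries. The part of any of these cell types in the *Cldn3* level of wild type replicate 1 was not tested.

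*Cldn5*, best known as the claudin of vascular endothelium and also found at the barrier, is a single-exon gene on chromosome 16 (18776940 to 18778353, plus strand). Its level was 10.8, 8.14, 9.07 and 6.16 CPM in wild type replicates 1 to 4. In *Morc2b*-/- replicates 1 to 4 it was 9.83, 7.84, 7.88 and 7.36 CPM. Both the highest and the lowest value belonged to wild type testes. The log2 fold change of -0.06 ± 0.18 had an interval from -0.45 to 0.34 (adjusted p = 0.9998 by edgeR), which admits a level about 27.0% higher or lower. The 9 endothelial markers summed to 105 to 200 CPM in wild type and 111 to 169 CPM in *Morc2b*-/- testes, with *Pecam1*, *Tek*, *Emcn* and *Robo4*, all listed with several transcripts, at 0 counts in every library. The libraries with the highest *Cldn5*, wild type replicate 1 and *Morc2b*-/- replicate 1, had the highest endothelial sums, 200 and 169 CPM. The library with the lowest *Cldn5*, wild type replicate 4, had the lowest sum, 105 CPM, and the share of *Cldn5* RNA from endothelium was not tested.

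**Figure D2:**
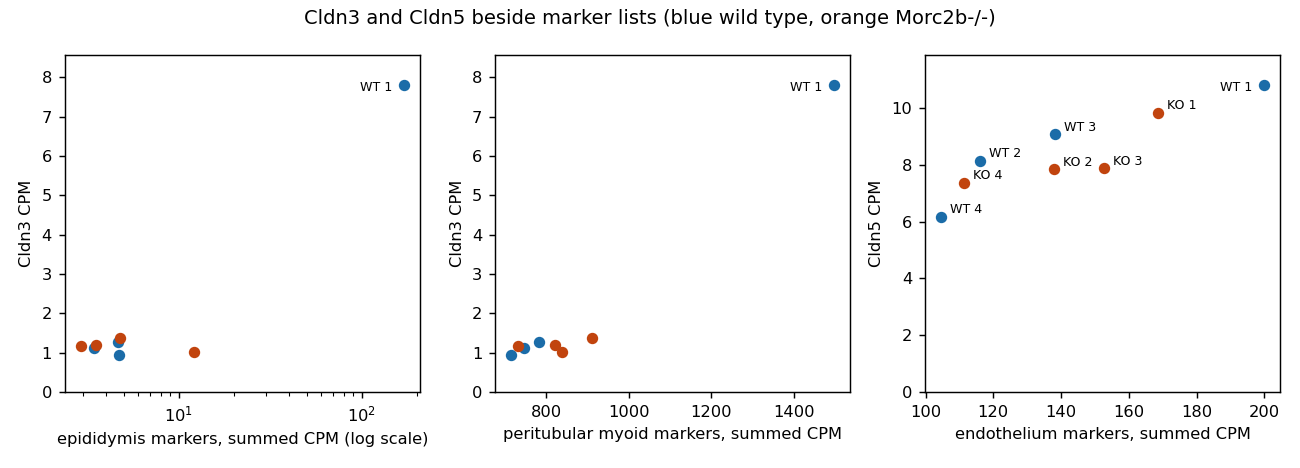
CPM of Cldn3 against the summed CPM of epididymis markers (log scale) and of peritubular myoid markers, and CPM of Cldn5 against the summed CPM of endothelium markers, 1 point per library (blue, WT: wild type, orange, KO: Morc2b-/-). Wild type replicate 1 lies far from the other 7 libraries for Cldn3 at 7.80 CPM, and Cldn5 is highest in the 2 libraries with endothelial sums of 200 and 169 CPM.

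*Ocln*, which encodes the tight junction membrane protein occludin, lies on the minus strand of chromosome 13 (101266462 to 101322673). It varied little, at 115, 117, 113 and 129 CPM in wild type and 122, 114, 125 and 131 CPM in *Morc2b*-/- replicates 1 to 4. Replicate 4 was the highest of its genotype in both cases. The coefficient of variation over the 8 libraries was 5.76%, of which counting error alone would give 1.61%. Its log2 fold change was 0.05 ± 0.06 (interval -0.09 to 0.20, adjusted p = 0.9998 by edgeR), so a change of more than 14.7% upward or 6.03% downward lies outside the interval.

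*F11r* encodes the junctional adhesion molecule JAM-A and lies on chromosome 1 (173367666 to 173394734, plus strand). Wild type replicates 1 to 4 had 353, 393, 400 and 378 CPM, and *Morc2b*-/- replicates 1 to 4 had 403, 403, 408 and 385 CPM. Wild type replicate 1 was the lowest of all, and the remaining 7 libraries lay within 378 to 408 CPM. *F11r* had the smallest coefficient of variation of the members, 4.68%, which fell to 2.78% without that library. The log2 fold change was 0.07 ± 0.05, with an interval from -0.05 to 0.19 (adjusted p = 0.9998 by edgeR), and 0.04 without wild type replicate 1.

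*Cxadr*, the gene of the coxsackievirus and adenovirus receptor, an adhesion protein made by both Sertoli and germ cells, lies on chromosome 16 (78301741 to 78360030, plus strand). It had 48.5, 46.4, 74.1 and 57.6 CPM in wild type and 79.3, 62.5, 73.5 and 55.7 CPM in *Morc2b*-/- replicates 1 to 4. The genotypes overlapped over most of this range. *Cxadr* had the largest positive log2 fold change of the members, 0.26 ± 0.16, with an interval from -0.11 to 0.63 (adjusted p = 0.9998 by edgeR, p = 0.229 by the exact permutation test). The estimate was 0.41 without the library labelled wild type replicate 3, 0.37 without both libraries labelled replicate 3 and -0.018 with the mean of the Sertoli markers as a covariate, and it did not pass the test in any of these fits.

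*Tjp1*, which encodes the scaffold protein ZO-1 under the tight junction, lies on chromosome 7 (72441051 to 72516125, minus strand). Wild type replicates 1 to 4 held 17, 13, 28 and 15 of its counts, and the *Morc2b*-/- libraries held 21, 15, 20 and 22. Reads shared by its 2 listed transcripts are left out of these counts. With so few counts, the interval of the log2 fold change ran from -0.74 to 0.74, and they do not settle whether *Tjp1* differed.

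*Cdh2* encodes N-cadherin, the cadherin of the basal ectoplasmic specialization between Sertoli cells. Wild type replicates 1 to 4 had 143, 163, 166 and 161 CPM, and *Morc2b*-/- replicates 1 to 4 had 169, 165, 167 and 159 CPM. As for *F11r*, wild type replicate 1 was the lowest library. Its coefficient of variation of 5.04% fell to 2.17% without that library. The log2 fold change was 0.06 ± 0.06, with an interval from -0.07 to 0.19 (adjusted p = 0.9998 by edgeR), and 0.01 without wild type replicate 1.

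*Gja1* encodes connexin 43, the gap junction protein through which Sertoli cells communicate with each other and with germ cells, and lies on chromosome 10 (56097106 to 56110225, plus strand). Its level was 585, 508, 590 and 604 CPM in wild type and 615, 548, 616 and 645 CPM in *Morc2b*-/- replicates 1 to 4. In both genotypes replicate 2 was the lowest and replicate 4 the highest. *Morc2b*-/- testes had a mean 6.01% higher, and the log2 fold change was 0.08 ± 0.07 with an interval from -0.08 to 0.25 (adjusted p = 0.9998 by edgeR).

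**Figure D3:**
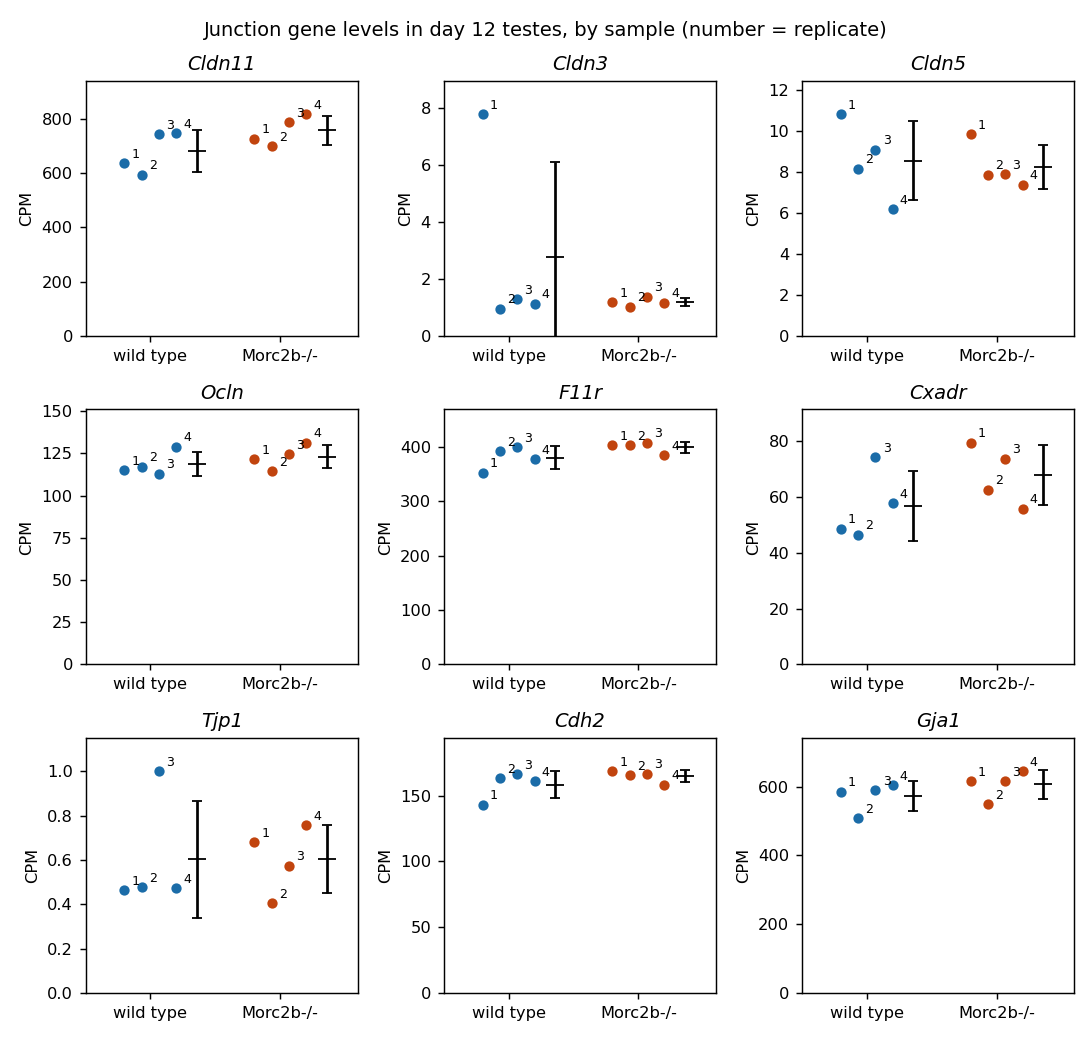
CPM of the 9 junction genes in each library, numbered by replicate, with the mean and SD of the 4 libraries of each genotype beside the points (an SD bar that would pass below 0 stops at 0). The genotypes overlap for every gene, and wild type replicate 1 is the highest for Cldn3 and the lowest for F11r and Cdh2.

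Set side by side, none of the 9 junction genes passed the test between genotypes (0 of 9), where 0% of the 13507 genes tested passed at adjusted p under 0.05. *Morc2b* itself did not pass, with a log2 fold change of -4.09 ± 1.21 and an edgeR adjusted p of 0.9998, so a gene that misses this threshold is not shown to be unchanged. At unadjusted p under 0.05, edgeR called 0 of 9 members and 249 of all genes tested, 1.84%. The values of the genotypes overlapped for all 9 members, and genes without overlap made up 1.29% of those tested (0.407% higher and 0.881% lower in *Morc2b*-/- testes). Of the 9 members, 7 had a log2 fold change above 0, as had 50.8% of all genes, and the number was 6 to 8 when single libraries were left out. It was 8 without wild type replicate 1, where 52.9% of all genes were above 0. The median over the members was 0.06, and over all genes tested it was 0.0022. In a whole-testis sample, fewer cells of a type and less RNA per cell cannot be told apart, so the level of each gene was also taken relative to the mean of the 8 Sertoli markers. On that scale the mean of the *Morc2b*-/- testes was above that of the wild type for *Cldn11* and *Cxadr* and below it for the other 7 members, and none passed the exact permutation test. The marker mean was itself higher in *Morc2b*-/- testes, at 0.054 ± 0.076 against -0.054 ± 0.085 in wild type (log2 CPM centred per gene, SD). *Ocln*, *Tjp1*, *F11r*, *Gja1* and *Cdh2* were above 0 before the marker mean was subtracted and below 0 after it. For *F11r* the difference of log2 CPM went from 0.07 to -0.04. *Cldn11* differed by 0.05 (p = 0.600, n = 4 each, exact permutation test) and *Gja1* by -0.02 (p = 0.800, exact permutation test). *Cdh2* gave the smallest p, 0.171, with a difference of -0.05 (exact permutation test, n = 4 each), and the smallest p this design allows is 0.0286.

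**Figure D4:**
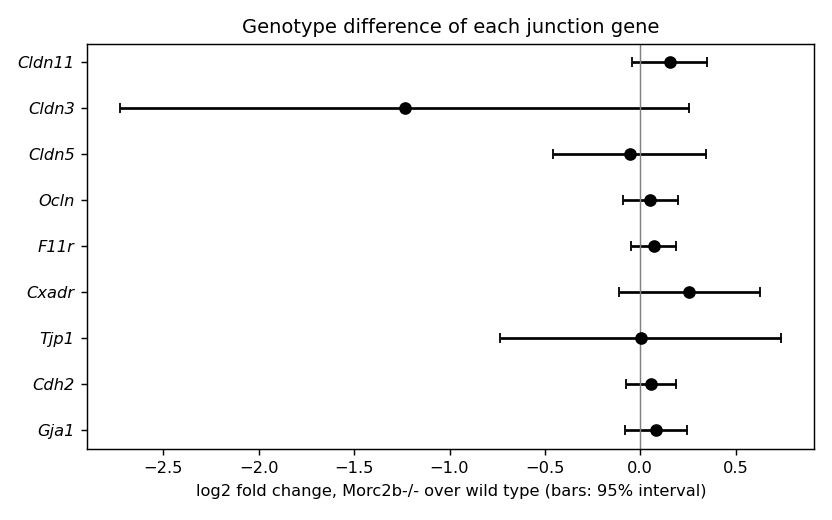
Log2 fold change of each junction gene, Morc2b-/- over wild type, with its 95% interval from the edgeR fit. Every interval includes 0, and the widest are those of Cldn3 (-2.73 to 0.25) and Tjp1 (-0.74 to 0.74).

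No other junction gene passed the test between genotypes. Of 29 further tight junction genes, 14 had enough counts to be tested, 10 of them above 0 and 4 below 0, with a median log2 fold change of 0.06 and none past the test. The most abundant per length were *Jam3*, *Jam2* and *Prkci*, at 121, 65.4 and 61.4 CPM per kb. *Jam3* and *Jam2* encode relatives of JAM-A and *Prkci* an atypical protein kinase C of the polarity complex. *Jam3* had 228 ± 12.5 CPM in wild type and 237 ± 15.9 CPM in *Morc2b*-/- testes (SD, n = 4 each). The largest differences were in sparsely counted genes, -1.01 ± 0.60 for *Cldn4*, -0.47 ± 0.38 for *Cldn7* and 0.40 ± 0.19 for *Prkcz* on the log2 scale (SE). Without wild type replicate 1, the *Cldn4* value was 0.02, so its difference, like that of *Cldn3*, came from that library.

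Among 21 genes of the adherens junction and ectoplasmic specialization, 17 were tested, 11 above 0 and 6 below 0, with a median of 0.06 and none past the test. *Arpc2*, a subunit of the actin-branching complex, *Itgb1*, the beta 1 integrin, and *Ctnna1*, alpha-catenin, were counted highest at 266, 193 and 144 CPM per kb. These 3 are each listed with 1 transcript, and genes with several listed transcripts are understated in this ranking. *Ctnnb1*, with 2 listed transcripts, had 21 counts in all 8 libraries together and was not tested, so its level is not known from these counts. *Itgb1* had 730 ± 40.5 CPM in wild type and 739 ± 17.3 CPM in *Morc2b*-/- testes. The largest differences were -0.60 ± 0.36 for *Ctnnd1* (p120-catenin, 5 listed transcripts), -0.27 ± 0.32 for *Cdh1* (E-cadherin) and 0.24 ± 0.21 for *Lama3* (a laminin chain). *Cdh1* was another epithelial gene with its highest value, 24.0 CPM, in wild type replicate 1, although wild type replicate 3 followed at 19.5 CPM.

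Desmosome and other gap junction genes were tested for 9 of 14 genes, 5 above 0 and 4 below 0, with a median of 0.03. *Jup* (plakoglobin), *Panx1* (a pannexin channel) and *Pkp2* (a plakophilin) were the most abundant of them at 22.7, 14.0 and 8.13 CPM per kb. *Gja1* at 190 CPM per kb was thus more abundant per length than any of the other connexin genes tested in this group, of which *Gja4* had 3.89 CPM per kb. The largest differences were -0.38 ± 0.19 for *Pkp4*, 0.20 ± 0.18 for *Gja4* and -0.19 ± 0.27 for *Dsg2*.

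Of 22 genes known to regulate the barrier, 16 were tested, 12 above 0 and 4 below 0, with a median of 0.05 and none past the test. The Sertoli transcription factors *Wt1*, *Sox9* and *Sox8* were the most abundant of those with an annotated length, at 138, 48.9 and 43.4 CPM per kb, and *Rhox5*, without a length in the annotation under that name, could not be ranked. *Sox9* had 191 ± 11.5 CPM in wild type and 213 ± 17.3 CPM in *Morc2b*-/- testes, which differed by 0.16 ± 0.07 on the log2 scale. *Tgfbr1*, a receptor of the TGF-beta pathway that can open the barrier, differed by -0.32 ± 0.23. *Il1a* and *Cav1* differed by -0.31 ± 0.37 and -0.25 ± 0.27. The 8 Sertoli markers, of which *Wt1*, *Sox9*, *Rhox5* and *Fshr* are shared with this group, were all above 0, with a median of 0.12 and none past the test.

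**Figure D5:**
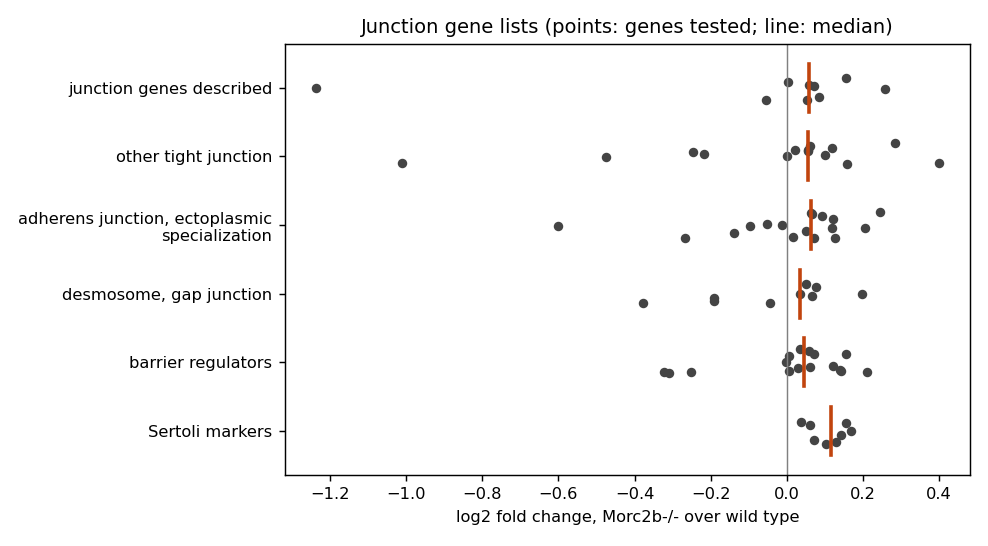
Log2 fold change, Morc2b-/- over wild type, of each tested gene in 6 groups (9, 14, 17, 9, 16 and 8 genes from top to bottom), with a line at the median of the group. Medians lie between 0.03 and 0.12, and the points at -1.24 and -1.01 are Cldn3 and Cldn4.

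The junction genes were next set against germ cell markers, taken as a rough measure of the progress of the first wave in each testis. Pachytene markers, of which 4 of 7 were tested, summed to 7.71 to 137 CPM in wild type testes, which thus differed widely in them. In *Morc2b*-/- testes they summed to 11.8, 23.5 and 15.6 CPM in replicates 1, 2 and 4. The sum was 139 CPM in replicate 3, so most of the spread in this genotype came from 1 library. In a fit with genotype and the mean of these markers (gene-centred log2 CPM, from -1.72 to 1.75), none of the 9 junction genes passed the test, against 0.511% of all genes tested. *Cldn11* changed by -0.01 ± 0.04 (SE) and *Gja1* by 0.0022 ± 0.03 on the log2 scale per unit of the marker mean. A unit is a doubling of the markers on average, and the interval for *Cldn11* was -0.10 to 0.08 per unit. Estimates for *Cldn3* and *Tjp1*, 0.45 ± 0.26 and -0.25 ± 0.11, were the largest, and these are the members with the fewest counts. The high *Cldn3* of wild type replicate 1 fell in a library with a high pachytene mean, 1.29.

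The 2 libraries with the highest spermatid markers, *Morc2b*-/- replicate 3 and wild type replicate 1, also had the highest pachytene means, 1.75 and 1.29. Markers of leptotene and zygotene, the stages that precede pachytene, were therefore used in place of the pachytene list, a choice made after seeing the data. Their mean spanned only -0.41 to 0.32, and it did not rank the libraries as the pachytene mean did. *Morc2b*-/- replicate 3 and wild type replicate 1 had -0.25 and -0.13 in it. *Morc2b*-/- replicate 4 had the highest value, 0.32, with a pachytene mean of -1.04. Wild type replicate 4 was above 0 in both means, and wild type replicate 3 and *Morc2b*-/- replicate 1 were below 0 in both. With the leptotene and zygotene mean, 1.9% of all genes tested passed (1.44% rising and 0.452% falling), but again none of the 9 members. *Cxadr* gave -0.66 ± 0.25 and *Cldn5* -0.66 ± 0.28 on the log2 scale per unit (edgeR adjusted p = 0.171 and 0.217). Genes at unadjusted p under 0.05 made up 22.2% of those tested in this fit, and both were among them. *Cldn11*, *F11r*, *Cdh2*, *Gja1* and *Ocln* lay between -0.08 and 0.11 per unit. The libraries with the highest *Cxadr*, *Morc2b*-/- replicate 1 at 79.3 CPM and wild type replicate 3 at 74.1 CPM, were among the 3 with the lowest leptotene and zygotene means.

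Against the Sertoli marker mean, which spanned -0.17 to 0.15, 0% of all genes tested and none of the members passed. *Cxadr* had the largest change for its error, 0.26 ± 0.08 on the log2 scale per 0.1 of the marker mean (edgeR adjusted p = 0.9998). *Cldn11*, *F11r* and *Cdh2* gave 0.07 ± 0.06, 0.06 ± 0.03 and 0.07 ± 0.04 per 0.1. *Ocln* and *Gja1* gave 0.0061 ± 0.05 and 0.02 ± 0.05. Wild type replicate 1 had the lowest Sertoli mean, and *Cldn3* gave -0.80 ± 0.36 per 0.1, which became positive when that library was left out.

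Among themselves, some of the abundant members moved together across the 8 libraries, given here as a description over libraries that share their depth and composition. *F11r* and *Cdh2* had Pearson's r = 0.96 on log2 CPM, and *Cldn11* and *Gja1* had r = 0.86. Across these pairs the values were low, r = 0.35 for *Cldn11* with *F11r* and r = -0.03 for *Gja1* with *Cdh2*. *Ocln* had r = 0.64 with *Cldn11* and 0.65 with *Gja1*. *Cxadr* did not keep to 1 of these pairs, at r = 0.70 with *F11r*, 0.68 with *Cdh2* and 0.62 with *Cldn11*. How often pairs of other genes reach such values was not measured. Without wild type replicate 1, r was 0.87 for *F11r* with *Cdh2* and 0.95 for *Cldn11* with *Gja1*. *Cldn3* ran opposite to *Cdh2*, at r = -0.89, a value that rested on wild type replicate 1, and without that library r was 0.32. The ratio of *F11r* to *Cdh2* per length stayed within 4.51 to 4.74 in all 8 libraries, the narrowest relative range of any neighbouring pair.

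The genes most like each of 3 members across the 8 libraries were sought among 7782 or 7783 tested genes with a mean of at least 10 CPM. *Cldn3* was most like *Actg2*, *Tagln*, *Psmb3*, *Pgm5* and *Cnn1*, at r = 0.99, 0.99, 0.99, 0.98 and 0.98, and *Actg2*, *Tagln* and *Cnn1* encode actin and actin-binding proteins of smooth muscle. Without wild type replicate 1 the values were 0.55, 0.69, 0.91, 0.13 and 0.62 in the same order, so all but that of *Psmb3* rested on that library. *Cldn11* was most like *Tusc1*, *Rap1b*, *Basp1*, *Ptma* and *Chmp1b*, at r between 0.96 and 0.97. *Gja1* was most like *Fkbp4*, *Mfsd2a*, *Slc25a5*, *Rabif* and *Mex3d*, at r from 0.97 down to 0.95. Without wild type replicate 1, the values for *Cldn11* and *Gja1* lay between 0.94 and 0.98. All are a description over 8 or 7 libraries.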

How the data were processed

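Total RNA from whole testes was made into TruSeq Stranded mRNA libraries and sequenced on a NextSeq 500. Per the study's methods, Tophat aligned the quality-filtered reads to mouse assembly NCBI37/mm9. The authors deposited 1 file of raw counts per sample, with 1 value for each RefSeq transcript, neither pooled nor normalised. The submitters' processing notes name Cufflinks and Cuffdiff, and the counting program, its strand setting and its annotation release are not given in the sources used here. Between 26.8 and 28.9% of uniquely aligned reads were tallied as ambiguous and are in no transcript's count.

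Of 35819 transcripts, 35522 were matched to a symbol, and the 297 unmatched ones (0.484% of counts) were kept as separate units. Counts were summed per symbol. The genotype test used edgeR 4.0.16 under R 4.3.3 (TMM, filterByExpr, quasi-likelihood test, Benjamini-Hochberg adjustment over 13507 genes, threshold 0.05), and single genes by exact two-sided permutation tests over 70 splits of log2 CPM with a prior count of 2. Counts varied by more than counting error between any pair of the 8 samples (chi-square per degree of freedom of 5.67 or more). Lengths are those of the longest protein-coding transcript in the annotation of NCBIM37, and start windows are from RefSeq. Same-numbered replicates did not deviate together (mean r = 0.05, from -0.32 to 0.45), so the numbers were not taken to pair samples. The tests were checked on simulated counts with 2-fold changes and no outlying library, so smaller changes like those of most members were not covered. Alternatives used RLE, limma-voom 3.58.1, DESeq2 1.42.0, sva 3.50.0, other filters, covariates, transcripts as units and single libraries left out. The genes named outside the 9 members were, in each group, the 3 highest per length, the 3 with the largest log2 fold change and any past the threshold. The members, lists and tests were chosen with earlier results of these data known. Figures were drawn with matplotlib 3.10.9.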

Additional observations from a re-analysis of the deposited data

Results flagged for a closer look

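In 48 groups of 4 libraries that were examined by Dixon's criterion, 8 had 1 library whose gap to its nearest neighbour took an unusually large share of the range. Chance gives about 1 in 20 such groups, and the groups are not independent, since 1 library enters many of them. Among the junction genes these were *Cldn3* in wild type testes, where replicate 1 at 7.80 CPM left a gap of 0.951 of the range, and *Tjp1* in wild type testes, where replicate 3 at 1.00 CPM (28 counts) left a gap of 0.975. Wild type replicate 1 was also the distant library for the epididymis markers (gap 0.992, 169 CPM), the peritubular myoid markers (gap 0.912, 1497 CPM) and the spermatid markers (gap 0.988, 149 CPM). *Morc2b*-/- replicate 3 was the distant library for the spermatid markers (gap 0.893, 303 CPM) and the pachytene markers (gap 0.907, 139 CPM). In the desmosome and gap junction group, *Morc2b*-/- replicate 4 was distant from the other 3 (gap 0.894, 139 CPM against 181 CPM or more). Wild type replicate 4 was also the lowest of its genotype in this group, at 134 CPM against 168 to 193 CPM, without passing the criterion.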

How the results depend on the processing

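No junction gene passed the test between genotypes under any alternative that was run, except that DESeq2 gave *Cldn3* no adjusted p, and *Cldn11* (0.10 to 0.20), *Ocln* (0.02 to 0.09), *F11r* (0.04 to 0.09), *Gja1* (0.03 to 0.13), *Cdh2* (0.01 to 0.08) and *Cxadr* (0.17 to 0.41) stayed above 0 on the log2 scale when single libraries were left out. Over all genes, DESeq2 called 1 gene in place of 0, *Pkmyt1* (log2 fold change -0.49, adjusted p = 0.0131, named after its value was seen), with 305 at unadjusted p under 0.05, while limma-voom called 0 with 226. A replicate block left the count of passing genes at 0 and gave 572 at unadjusted p under 0.05, *Cldn11* among them. Other junction genes under that unadjusted threshold were *Cldn3* without wild type replicate 2, and *Cxadr* without wild type replicate 3 and without both libraries numbered 3. Under the replicate block *Gja1* changed sign in its relation to the pachytene (-0.0031) and Sertoli (-0.14) markers. Relative to Sertoli markers, the number of junction genes past the permutation test was 0 to 1 when single libraries were left out, the one being *Cdh2* without *Morc2b*-/- replicate 2.

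When single libraries were left out, log2 fold changes spanned -1.51 to 0.084 for *Cldn3*, -0.19 to 0.079 for *Cldn5*, -0.12 to 0.35 for *Tjp1*, -1.31 to 0.016 for *Cldn4*, -0.020 to 0.034 for *Itgb1*, -0.054 to 0.20 for *Jup*, -0.0011 to 0.12 for *Panx1*, -0.0050 to 0.17 for *Pkp2*, -0.021 to 0.34 for *Lama3* and -0.0016 to 0.11 for *Wt1*. Differences of log2 CPM in the permutation test spanned -0.90 to 0.083 for *Cldn3*, -0.18 to 0.087 for *Cldn5* and -0.068 to 0.29 for *Tjp1*. Relative to Sertoli markers, the spans were -1.01 to 0.013 for *Cldn3*, -0.29 to 0.017 for *Cldn5*, -0.081 to 0.027 for *Gja1*, -0.014 to 0.092 for *Cldn11* and -0.20 to 0.15 for *Tjp1*. Changes per unit of the pachytene mean spanned -0.037 to 0.033 for *Cldn11*, -0.0096 to 0.018 for *Gja1*, -0.0038 to 0.026 for *Ocln*, -0.15 to 0.055 for *Cxadr* and -0.11 to 0.016 for *Cldn5*, and per unit of the Sertoli mean -12.2 to 2.37 for *Cldn3*, -1.42 to 1.46 for *Cldn5*, -0.19 to 0.38 for *Ocln* and -0.13 to 0.52 for *Gja1*.

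*Tjp1* was -0.00081 with RLE, -0.0035 with at least 10 counts in every sample, -0.011 with the pachytene covariate, -0.027 with the leptotene and zygotene covariate, and -0.29 with the Sertoli covariate. That Sertoli covariate also turned *Cldn3* (0.14), *Cldn5* (0.026), *Cdh2* (-0.021), *Cxadr* (-0.018), *Cldn7* (0.13), *Jup* (-0.091), *Panx1* (-0.01), *Pkp2* (-0.049), *Wt1* (-0.023) and *Sox8* (-0.0047). Without wild type replicate 1 and *Morc2b*-/- replicate 3, left out after seeing their spermatid markers, *Cldn3* was 0.0023, *Cldn5* 0.095, *Tjp1* -0.095, *Cldn4* 0.012, *Jup* -0.0093 and *Dsg2* 0.026. The leptotene and zygotene list in place of the pachytene list gave *Cldn3* -1.75, *Cldn11* 0.011 and *Gja1* -0.080 per unit. The cause of these sign changes was not tested. The number of genes passing with the pachytene mean was 69, and it ran from 1 without *Morc2b*-/- replicate 3 to 236 without wild type replicate 4, with 37 without wild type replicate 3 and 219 under the replicate block.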
